A study of Mus musculus and synthetic RNA with 74 samples.

Results

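Lif, its receptor pair and the Stat3 branch of signalling behind them were examined as 8 genes, Lifr, Il6st, Lif, Jak1, Jak2, Stat3, Socs3 and Pim1, out of 19639 genes listed in both embryo stage tables. All 8 were matched by gene name at both stages, and the exons and introns of Lifr were followed one by one. The genes were chosen from the authors' own comparison of genotypes at E3.5, in which Lifr stood out. Those genotype values are not used here, and nothing below tests them.

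The study sequenced polyadenylated RNA of single mouse embryos from crosses of heterozygous Mettl16 parents. The mothers had been superovulated with injected PMSG and HCG. Mettl16 encodes an RNA methyltransferase, and the mutant allele carries a cassette of stop codons in an early exon. It was made in B6D2F1/J embryos by Cas9, and 1 of the study's 2 mutant lines, passed on through C57BL/6JRj partners, gave the embryos. At E2.5, the morula stage, 5 WT, 14 HET and 12 KO embryos were sequenced, 31 in all. At E3.5, the blastocyst stage, there were 18 WT, 9 HET and 12 KO embryos, 39 in all. The genotype of each embryo was read from its own Mettl16 reads, so the level of Mettl16 is no independent check of the labels, and parents carrying 1 mutant copy gave all embryos, WT included.

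The tables used here give 1 value per gene or feature and stage, the authors' mean over all embryos and genotypes of that stage. No value per embryo was analysed, so no spread, SE or test stands behind any value below, and every difference is a description. WT embryos made up 16.1% of the E2.5 mean and 46.2% of the E3.5 mean, HET embryos 45.2% and 23.1%, and KO embryos 38.7% and 30.8%. Stage and genotype mix therefore cannot be told apart. The means summed to 23557112 normalized counts over 20330 genes at E2.5 and to 27145016 over 21199 genes at E3.5. The median gene had a mean of 36.4 and 51.6.

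Lif is a secreted cytokine of the interleukin-6 family. It binds the LIF receptor chain, encoded by Lifr, which pairs with gp130, encoded by Il6st. Janus kinases held by these chains phosphorylate Stat3, which then enters the nucleus and switches on genes that include Socs3, a feedback inhibitor of the receptor, and Pim1, a survival kinase. The pathway is known for keeping mouse embryonic stem cells self-renewing, for supporting the epiblast when a blastocyst pauses in diapause, and for implantation, where Lif comes from the uterus.

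Lifr is also known to make a soluble receptor, which lacks the membrane anchor and binds Lif outside the cell. In the RefSeq annotation of GRCm38.p6, Lifr lies at chr15:7129572-7197489 on the plus strand. The membrane form has 20 exons, 9663 nt and 1092 residues. The soluble form has 17 exons, 2844 nt and 719 residues. Both share 14 exons, and they part after exon 15 of the membrane form. The 2 junctions are shown because they are where the 2 receptors differ. Lower case marks the 22 bases that end the last shared exon (chr15:7184797-7184818), and capitals mark the first 8 bases of the exon that follows, at chr15:7185067-7185074 in the soluble form and chr15:7185566-7185573 in the membrane form. The soluble form reads into a stop codon, the last 3 of its 8 capitals.
Lifr soluble: attggatacgtagaagaactggAAGCTTAA
Lifr membrane: attggatacgtagaagaactggCTCCCATT

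The annotated starts of the 2 forms also differ, and the 250 bases before each are shown because the first exons behind them can be read separately in the data. The first lies at chr15:7129322-7129571 and precedes the soluble transcript. The second lies at chr15:7140292-7140541 and precedes the membrane transcript. Capitals are not used, since no motif was marked.
Lifr first promoter: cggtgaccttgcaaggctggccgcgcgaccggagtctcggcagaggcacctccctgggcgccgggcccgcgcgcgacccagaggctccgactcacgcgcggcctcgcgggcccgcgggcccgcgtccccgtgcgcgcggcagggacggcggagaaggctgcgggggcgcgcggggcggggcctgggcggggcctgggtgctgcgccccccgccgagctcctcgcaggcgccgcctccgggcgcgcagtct
Lifr second promoter: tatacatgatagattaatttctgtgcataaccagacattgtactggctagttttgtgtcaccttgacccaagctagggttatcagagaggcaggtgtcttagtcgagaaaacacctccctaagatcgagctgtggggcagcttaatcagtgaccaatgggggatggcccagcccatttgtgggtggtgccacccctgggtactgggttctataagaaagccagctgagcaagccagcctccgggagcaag

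The first of these windows is 82.4% G and C with 43 CG dinucleotides, past the 95th percentile of all annotated promoters (73.6% and 31). The second is 50.8% G and C with 3 CG dinucleotides, near the median promoter in G and C (52.4%) and below it in CG (6.00).

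As a gene estimate from Salmon, Lifr had a mean normalized count of 111 at E2.5 and 1065 at E3.5. It stood at the 60.8th percentile of listed genes at E2.5 and at the 82.0th at E3.5. Among genes with a mean of at least 10, it stood at the 36.9th percentile at E2.5. Because the stages were normalized separately, stage values were compared as shares of all counts of the stage. Lifr took 4.69 counts per 1000000 (CPM) at E2.5 and 39.2 CPM at E3.5, a ratio of 8.36.

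Il6st (chr13:112464070-112506860, plus strand), the signalling chain that all cytokines of this family share, had means of 26.7 at E2.5 and 267 at E3.5, and its share was 8.70 times as high at E3.5. At E2.5 it stood at the 47.0th percentile of listed genes, and at the 14.7th of those with a mean of at least 10. Both receptor chains were higher at the later stage. By summed exon counts their ratios were further apart, 14.7 for Lifr and 6.20 for Il6st. Ratios of exon counts, here and below, are of the stage means as deposited, without scaling to the stage total.

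Lif itself (chr11:4257568-4272514, plus strand) had means of 58.1 at E2.5 and 214 at E3.5, with a share ratio of 3.20. The ligand was listed in the embryos at both stages, at the 54.6th and the 62.4th percentile of listed genes. Among genes with a mean of at least 10 it stood at the 26.9th and the 40.0th.

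The kinases parted. Jak1 (chr4:101151974-101265282, minus strand), the kinase that gp130 signalling depends on most, had means of 492 and 3305 and a ratio of 5.83. Its exons overlap an exon of Raver2 on the other strand, and the libraries do not keep strand, so reads there cannot be told apart. Jak2 (chr19:29251803-29313080, plus strand) had means of 157 and 242 and a ratio of 1.34, which lay close to the ratio of 1.33 of the median gene. Its direction was not settled, since its summed exon counts, not scaled to the stage total, gave a ratio of 0.963. Its Salmon estimate over its exon sum was 0.466 at E2.5 and 0.746 at E3.5. For the median gene this quotient was 0.567 and 0.833, so the shift was not particular to Jak2.

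Stat3 (chr11:100886806-100939540, minus strand), the transcription factor of the pathway, had the highest ratio of the 8 by the Salmon estimate, while by summed exon counts Lifr (14.7) lay above Stat3 (9.72). Its means were 172 and 2945, its share went from 7.30 to 109 CPM, and the ratio was 14.9. By this ratio it stood at the 95th percentile of genes.

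Among the 8 genes, the 2 that Stat3 is known to switch on lay the other way. The 12 further targets of Stat3 counted below did not do so as a set, with a median ratio of 1.07. Socs3 (chr11:117966079-117969366, minus strand) had means of 3790 at E2.5 and 138 at E3.5. Its share was 161 CPM at E2.5 and 5.07 at E3.5, so it was 31.7-fold lower at E3.5. Pim1 (chr17:29491045-29495465, plus strand) had means of 1526 and 156 and was 11.3-fold lower by its share. Among listed genes Socs3 stood at the 94.7th percentile at E2.5 and at the 58.3rd at E3.5, and Pim1 at the 87.9th and the 59.5th.

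**Figure D1:**
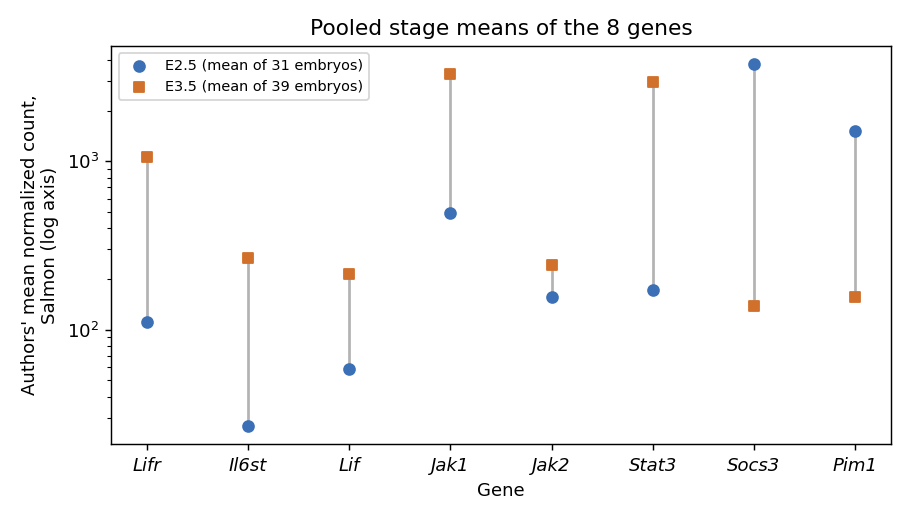
Authors' mean normalized count of each gene by Salmon, on a log axis, for E2.5 (circles, mean of 31 embryos) and E3.5 (squares, mean of 39 embryos), with no error bars since no value per embryo was analysed. Socs3 and Pim1 lie far higher at E2.5 (3790 and 1526 against 138 and 156), and Lifr, Il6st, Lif, Jak1 and Stat3 lie higher at E3.5.

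In all, 5 of the 8 genes had a share at least 2-fold higher at E3.5, beside 35.3% of the 14120 genes with a mean of at least 10 at either stage. Another 2 were at least 2-fold lower, beside 19.5% of those genes, and Jak2 was neither. The median ratio was 4.51 over the 8 genes and 1.33 over all. When stages were aligned on the median ratio of well measured genes (1.31 on the means as deposited) in place of the totals, the ratio was 7.37 for Lifr, 13.1 for Stat3 and 1.18 for Jak2, and no gene of the 8 changed direction.

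Among markers of the embryo's own lineages, only those of the trophectoderm all lay the same way. All 6 trophectoderm genes counted (Cdx2, Gata3, Krt8, Krt18, Eomes and Elf5) were at least 2-fold higher at E3.5, beside 35.3% of all genes. Their summed share went from 119 to 3019 CPM. The 5 inner cell mass genes summed to 471 and 325. Of them, 2 were at least 2-fold higher and 2 at least 2-fold lower, beside 35.3% and 19.5% of all genes. The 4 primitive endoderm genes summed to 212 and 209, but 2 were at least 2-fold higher and 1 at least 2-fold lower, beside the same shares of all genes. In whole embryos, more cells of a type and more RNA per cell cannot be told apart. Of 3 oviduct genes, Ovgp1, a secreted oviduct glycoprotein, had means of 320 and 25.3, Pax8 28.1 and 4.13, and Foxj1, which defines ciliated cells, 0.337 and 0.0650. Their summed share was 14.8 CPM at E2.5 and 1.09 at E3.5, most of it from Ovgp1. The 3 cumulus cell genes summed to 0.0539 and 0.0266 CPM and the 3 blood genes to 0.416 and 0.585. The part of any of these in the values of the 8 genes was not tested.

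To compare levels between genes, each was taken per length, as the summed mean counts on a gene's exons per kb of exon. At E2.5 Socs3 (1387 per kb) and Pim1 (1260) came first. Jak1 (201 per kb), Stat3 (78.3) and Jak2 (66.5) followed, and Lif (8.59), Il6st (7.73) and Lifr (1.26) were the lowest. At E3.5 Jak1 (856) and Stat3 (761) came first. Below them lay Pim1 (82.5), Jak2 (64.1), Il6st (47.9), Socs3 (43.1) and Lif (41.9), all within a factor of 2, and Lifr (18.5) was again the lowest. With no spread, close neighbours in this order cannot be ranked. Per kb of the longest protein-coding transcript in GENCODE, Pim1 was at 53.8 at E3.5, below Jak2 at 64.4. Il6st was at 30.1, below Socs3 at 46.1 and Lif at 45.1. At E2.5 Stat3, at 58.6, then came after Jak2, at 66.9.

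The low place of Lifr in this order differs from its Salmon estimate. Its 23 exons summed to 13 mean counts at E2.5 and 191 at E3.5, so the Salmon estimate was 8.52 and 5.57 times the summed exon counts. Over all genes this quotient had a median of 0.567 at E2.5 (5th to 95th percentile 0.379 to 1.16, 11767 genes) and 0.833 at E3.5 (0.537 to 1.48, 12235 genes). The quotient of Lifr was above that of 99.4% of genes at E2.5, with 70 genes at or above it, and of 99.0% at E3.5, with 124 at or above it. The other 7 genes ran from 0.461 for Jak1 to 1.56 for Lif at E2.5, and from 0.729 for Jak1 to 1.18 for Lif at E3.5. The level of Lifr thus depended on the quantity used, by a factor of 5.57 or more, while its direction between stages did not. The exon counts gave a ratio of 14.7 for Lifr, 6.20 for Il6st, 4.88 for Lif, 4.25 for Jak1 and 9.72 for Stat3. They put Socs3 32.2-fold and Pim1 15.3-fold lower at E3.5.

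**Figure D2:**
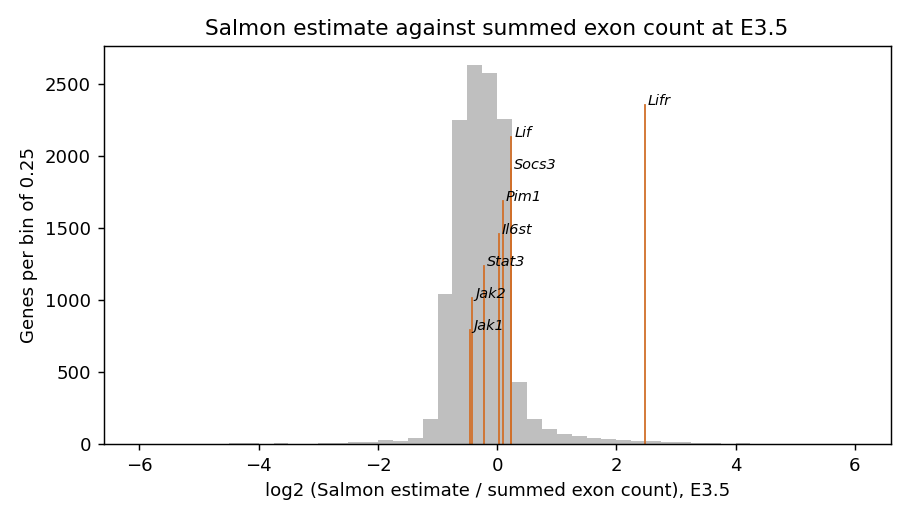
Number of genes by the log2 of the Salmon estimate over the summed exon count at E3.5 (grey bars, 0.25 wide), with an orange line for each of the 8 genes, whose heights carry no value. Lifr, at a quotient of 5.57, lies to the right of the other 7, which run from 0.729 to 1.18.

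Exon by exon, all 23 exons of Lifr had a higher mean at E3.5. Means and ratios of single exons and of runs of exons are not scaled to the stage total. The means were small: only 4 exons reached a mean of 1 at E2.5, and 20 did at E3.5. The tables do not give the number of reads behind a mean, so the profile at E2.5 rests on little signal. The ratio of the 21 exons with a value at E2.5 ran from 1.27 through a median of 10.7 to 71.5, and the other 2 were at 0 at E2.5.

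The shape along the gene differed between stages. Exons 2 to 9 of the membrane form, which both forms share, lay between 5.11 and 7.09 per kb at E2.5, and exons 10 to 15, also shared, between 0.871 and 3.74. At E3.5 the same 2 runs lay at 6.67 to 34.8 and at 12.4 to 75.6. In sum, exons 2 to 9 had 3.66 times and exons 10 to 15 had 23.1 times the mean count at E3.5. The place of this split was picked after the values were seen. The lowest ratio of the gene, 1.27, fell on exon 4, and the highest, 71.5, on the last exon.

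The same shift was looked for in the other genes with many exons, by dividing the run of exons, last exon left out, into 2 segments with equal numbers of exons or 1 apart. For Lifr the downstream segment had 0.319 times the upstream signal per kb at E2.5 and 2.08 times at E3.5. For Il6st the quotient was 0.723 and 0.889, for Jak1 1.06 and 3.45, for Jak2 2.40 and 4.44, and for Stat3 1.64 and 3.36. All 5 thus had relatively more signal on the downstream segment at E3.5, and at E2.5 the quotient was below 1 for both receptor chains alone.

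**Figure D3:**
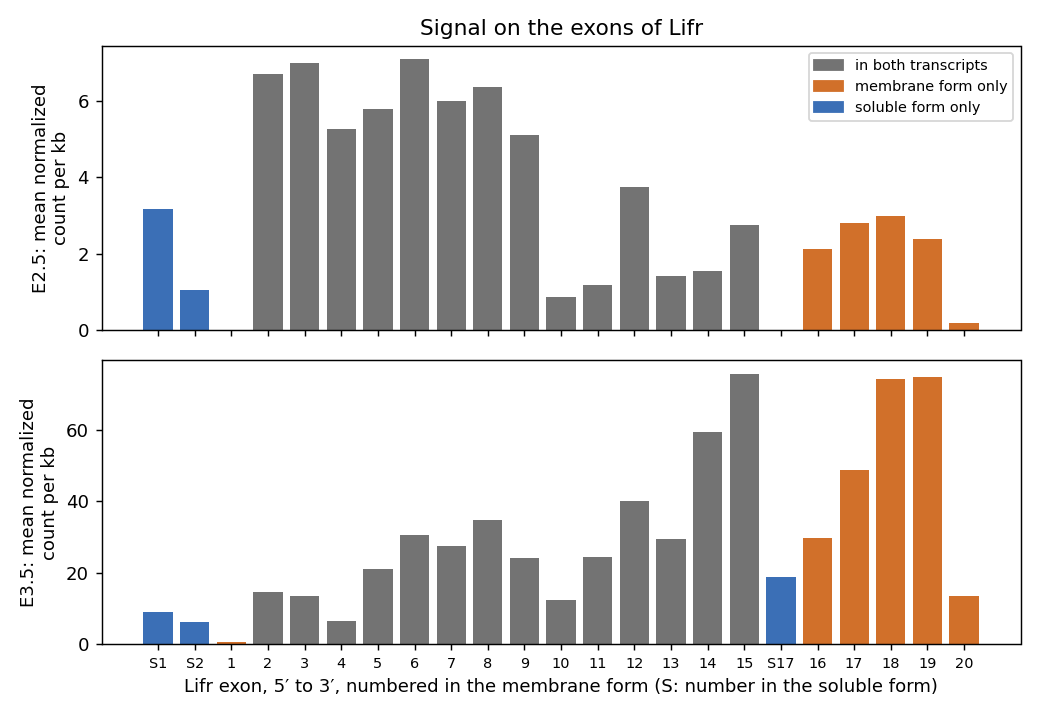
Mean normalized count per kb on each exon of Lifr at E2.5 (above) and E3.5 (below, with its own scale), in order from 5′ to 3′, coloured by the transcripts that hold the exon. At E2.5 the bars of exons 2 to 9 (5.11 to 7.09 per kb) stand above all later ones, and at E3.5 the tallest bars are exons 15, 18 and 19 (75.6, 74.3 and 74.7).

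Exons that belong to 1 form give the nearest view of the 2 receptors. Behind the branch shown above, the last exon of the soluble form (277 nt) was at 0 at E2.5 and at 18.9 per kb at E3.5. The 4 exons of the membrane form that follow the branch, before its last, lay together at 2.54 per kb at E2.5 and 51.3 at E3.5. The shared exons had 4.33 and 28.8 per kb. Exons particular to each form were thus above 0 at E3.5. An exon's count is not a transcript's, and reads across the 2 junctions were not analysed here.

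The last exon of the membrane form is 6944 nt long, of which 624 nt are coding and 6320 nt follow the stop codon. It held 10.2% of the exon signal of Lifr at E2.5 and 49.4% at E3.5. Per length it stayed low, at 0.190 and 13.6 per kb, below the 74.7 per kb of the exon before it at E3.5.

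At the 5′ end, the 2 first exons of the soluble transcript, behind the first promoter shown above, had 2.43 per kb at E2.5 and 8.07 at E3.5. The first exon of the membrane transcript, behind the second promoter, was at 0 at E2.5 and at 0.656 per kb at E3.5. That exon is 42 nt long, and its mean at E3.5 was 0.0276 counts. Values so low on so short an exon cannot rank the 2 annotated starts, and the promoters themselves were not measured.

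The introns of Lifr carried little signal. Of 22 introns, 20 hold no exon of the gene. Of these, 12 were at 0 at E2.5 and 1 at E3.5. Their signal had a median of 0 and a highest value of 0.741 per kb at E2.5, and a median of 0.540 and a highest value of 5.16 per kb at E3.5. Summed over all, intron signal per kb was 9.54% of exon signal per kb at E2.5 and 4.94% at E3.5. At E2.5 intron 4 of the membrane form alone held 3.69 of the 5.68 summed mean counts. Without the long last exon the 2 values were 3.48% and 3.20%.

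Of the other genes, Il6st had 0.945% at E2.5 and 5.53% at E3.5, Stat3 0.984% and 2.57%, Jak2 0.366% and 2.02%, and Jak1 0.311% and 0.515%. Lif had 1.87% and 0.849%, and Socs3 1.22% and 0.721%. Pim1 had 2.92% at E2.5 and 18.4%, the highest value at that stage, at E3.5. Its intron signal went from 36.8 to 15.2 per kb while its exon signal went from 1260 to 82.5, so that both were lower and the exons more so.

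**Figure D4:**
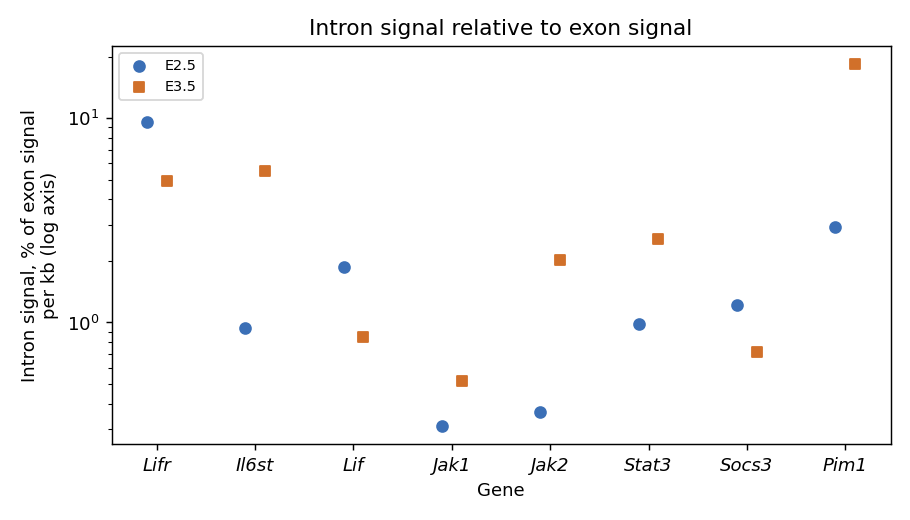
Intron signal per kb as a percentage of exon signal per kb for each gene, on a log axis, at E2.5 (circles) and E3.5 (squares). Pim1 at E3.5 (18.4%) and Lifr at E2.5 (9.54%) are the highest points, and Jak1 is low at both stages (0.311% and 0.515%).

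Beyond the 8 genes, 46 further genes of the pathway were counted by role. Of them, 38 had a mean of at least 10 at E2.5 and 40 at E3.5. Among the 40 with such a mean at either stage, 12 had a share at least 2-fold higher at E3.5 and 9 at least 2-fold lower, beside 35.3% and 19.5% of all genes, and the median ratio was 1.26 against 1.33. As a whole these genes lay close to the background.

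Among 7 other ligands of gp130, 5 were measured at this level, 1 higher and 1 lower, beside 35.3% and 19.5% of all genes. The highest per length at E3.5 were Il6, the founding cytokine of the family, with means of 1.48 and 88.3, and Cntf, a neurotrophic factor, with 9.00 and 16.8. The exons of Il27 were at 0 at E3.5. Of 5 other receptor chains only 2 were measured. Il11ra1, the interleukin-11 receptor, had 25.1 and 104, and Il6ra, the interleukin-6 receptor, 279 and 179. The exons of Osmr, the chain that pairs with gp130 for oncostatin M, were at 0 at E2.5 and barely above it, at 0.00377 per kb, at E3.5.

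The 2 other Janus kinases differed. Tyk2 had means of 1049 and 272, a share 4.44-fold lower at E3.5, and Jak3, known from lymphocytes, had 52.5 and 69.8. At E2.5 Tyk2 had 326 mean counts per kb of exon, above Jak1 at 201, and at E3.5 it had 59.5 against 856. Of the 6 other Stats, 5 were measured, 3 higher and 1 lower, beside 35.3% and 19.5% of all genes. Stat6, which acts downstream of interleukin-4, went from 45.3 to 968, a ratio of 18.6 that exceeded that of Stat3. Stat5a went from 106 to 303. Stat2, a factor of the interferon response and the 1 that was lower, went from 970 to 154. It was named after its values were seen.

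All 14 inhibitors were measured at both stages, 5 higher and 3 lower, beside 35.3% and 19.5% of all genes. The highest per length at E3.5 were Pias2, a SUMO ligase of the family that restrains Stats (910 and 2423), and Ptpn11, a phosphatase recruited to gp130 (1087 and 1914). Within the family of Socs3, Socs4 lay the same way, with means of 313 and 180 and a share 2.00-fold lower. Others lay the opposite way. Socs1, the closest relative of Socs3, had means of 63.3 and 253 and Socs2 of 178 and 734. Their shares were 3.48 and 3.57 times as high at E3.5, and that of Socs5 6.37 times. Socs6 (1.59), Socs7 (0.972) and Cish (0.771) stayed within 2-fold. These relatives of Socs3 were named after their values were seen.

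Of 12 genes that Stat3 is known to act on in pluripotent cells, 2 were at least 2-fold higher and 3 at least 2-fold lower, beside 35.3% and 19.5% of all genes, with a median ratio of 1.07. Klf5, a factor of naive pluripotency and trophectoderm, had means of 4525 and 6472, and Tfcp2l1, a main Stat3 target in stem cells, 2512 and 16805, a ratio of 5.81. Pim3, the relative of Pim1, lay the same way as Pim1, with 2207 and 566 and a share 4.49-fold lower, and was named after its values were seen.

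**Figure D5:**
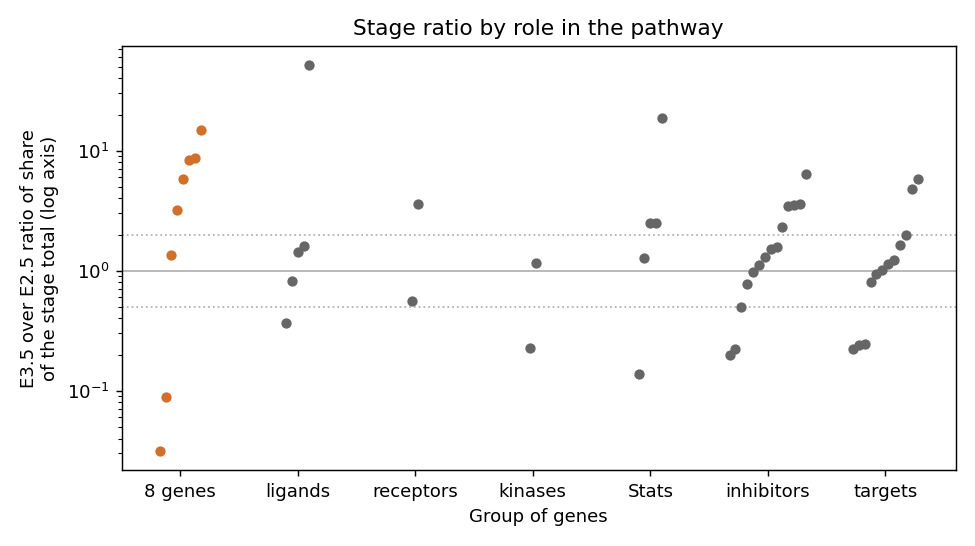
Ratio of the share of all counts at E3.5 to that at E2.5, on a log axis, for the 8 genes (orange) and for 40 other pathway genes by role (grey), 1 point per gene. The solid line marks a ratio of 1 and the dotted lines 2-fold, and the 8 genes reach from below 0.1 for Socs3 and Pim1 to 14.9 for Stat3.

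Stat3 binds the palindrome TTCNNNGAA, so the 250 bases before each annotated start were searched on both strands. The motif was in 1 of 10 promoter windows of the 8 genes, near the share of 7.02% among 32851 windows of all genes. That window is of Socs3, and the site is shown in capitals with its flanks at chr11:117969492-117969540, minus strand. It lies 154 to 146 bases before the start.
Socs3 promoter: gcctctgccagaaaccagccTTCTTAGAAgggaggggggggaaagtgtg

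The stricter palindrome TTCCNGGAA, a subset of the first, was in 0 of the 10 windows, beside 0.913% of all. A match is a run of letters in a window and was not measured as a binding site.

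METTL16 methylates the adenosine at the fourth place of UACAGAGAA in suitably folded RNA. No protein-coding transcript of the 8 genes in GENCODE (0 of 32) holds this nonamer, while 993 of 21877 protein-coding genes do (4.54%). The randomized RNA library in which the study methylated this nonamer in vitro therefore has no matching window in these genes, and its values were not used here.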

How the data were processed

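The authors amplified single embryos by Smart-seq2, without strand, estimated RefSeq transcripts of mm10 with Salmon (0.7.2 in the submitters' processing notes), summed them to genes, and used featureCounts for each exon and intron. The authors deposited a signal per gene or feature, the mean count normalized with DESeq2 over all embryos of a stage. Their tables also hold log2 fold changes between genotypes and adjusted p-values, which were not used. Reads per embryo, which the study lists in a supplement, were not used here, and the tables do not give the reads behind the mean of a gene or exon.

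From these means, shares of the stage total, percentiles, levels per kb of exon and intron (10 nt trimmed at each intron end) and stage ratios were computed with Python 3.11.15, numpy 2.4.6 and pandas 2.3.3. Genes counted had a mean of at least 10, and a stage difference was counted from 2-fold. The genotype fits planned for values per embryo were not run. All 8 genes were named, then for each role the 2 highest per length at E3.5 and those with exons at 0. Members and lists were chosen with earlier results of these data known. Genomic sequences came from RefSeq on GRCm38.p6. Transcript sequences for the nonamer search and the longest transcript lengths came from protein-coding transcripts in GENCODE. Alternatives were summed exons, other lengths, scalings and minimums.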

Additional observations from a re-analysis of the deposited data

How the results depend on the processing

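Of 96 values under alternatives, 65 moved by less than 1.5-fold, 30 moved by more and 1 changed direction. With summed exons in place of Salmon the level of Lifr was 13 at E2.5 and 191 at E3.5 (111 and 1065 by Salmon). With the same exchange, an alternative chosen after seeing the data, the stage ratio of Lifr was 14.7 in place of 8.36. That of Jak2 was 0.963 in place of 1.34, a change of direction. The exon ratios were not scaled to the stage total, so quantity and scaling changed at once. Without scaling, the Salmon ratios were 9.64 for Lifr and 1.54 for Jak2. Without the last exon, intron signal of Lifr was 3.48% and 3.20% of exon signal in place of 9.54% and 4.94%. With a minimum mean of 100, 23 pathway genes were counted at E2.5 in place of 38. The cause was not tested for the exchange of exons. No paired analysis was possible because the tables hold no value per embryo. For the same reason the alternatives planned for genotype fits (no filter, size factors of DESeq2, each E2.5 WT embryo left out) were not run. Exon means of Lifr below 1 at E2.5 limit what its profile there can show.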
